A study of Danio rerio with 36 samples.

Results

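GFP-negative cells (C) of the zebrafish eye were compared between 60 and 48 hours post fertilization (hpf), an interval near the end of neurogenesis in the central retina. The comparison uses 5 of the 36 columns of the deposited expression table, namely the 3 columns of 60 hpf C and 2 of the 3 columns of 48 hpf C. Replicate 3 of 48 hpf C was left out because it matches the GFP-positive columns of 48 hpf. All columns come from the transgenic line Tg(*GFAP:GFP*), in which the promoter of *gfap*, a glial intermediate filament gene, drives GFP. The labels give no other allele, and embryos were kept in phenylthiourea to block pigmentation. Whole eyes of several embryos were pooled at each stage and dissociated with trypsin. The cells were sorted into GFP cells, which the study labels Müller glia (MG), and non-GFP cells. RNA of the sorted cells was amplified before sequencing. The non-GFP gate therefore holds every cell of the dissected eye without GFP, of the retina or not. The paper dates the first specification of Müller glia to about 60 hpf, so that MG is used here as the name of the GFP gate.

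The vertebrate retina arises from a sheet of dividing progenitors that produce ganglion, amacrine, horizontal, bipolar, and photoreceptor cells and, last, Müller glia. Notch receptors and their *her* targets hold progenitors back from differentiating, while proneural transcription factors of the bHLH class and factors such as *atoh7*, *foxn4*, *crx*, and *vsx1* direct cells toward single fates. In the zebrafish central retina this program runs to its end within about a day, and synapses, phototransduction proteins, and vision follow.

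The 60 hpf C columns held 6748418 to 6769549 reads on genes, and the 48 hpf C columns used held 1317341 and 1311849. Values are CPM (counts of a gene per 1000000 counts that its column holds on genes), obtained from the deposited log2 values. The columns of a stage differed by no more than read sampling. The median chi-square over genes was 0.138 to 0.974 times its sampling value within 60 hpf C and 0.0853 times within 48 hpf C, against 14.8 to 15.13 between the stages. Each stage was therefore counted as 1 library, no p-value is given, and every difference is one between these libraries, with no replicate check. Statements that every column lay on one side, or that the stages did not overlap, only describe the columns. For called genes they add no support, since the columns of a stage are nearly equal. The left-out replicate 3 of 48 hpf C stood at 6.76 and 6.78 times sampling from the other columns of its group, but at 0.678 and 0.990 from 48 hpf MG replicates 1 and 2. From 48 hpf MG replicate 3 it stood at 86.3. That MG column in turn lay at 0.859 to 0.947 from the 72 hpf MG columns. Values of the left-out C column are given beside the results as replicate 3, and lists were also counted with it.

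A gene was tested when it reached 10 CPM in the mean of either stage, and called when the stages differed at least 2-fold, with CPM under a floor of 2.29 (3 reads of the shallowest column) set to the floor, so that a fold against a stage without reads is a lower bound. Ranges in brackets after a fold are exact 95% Clopper-Pearson intervals of the ratio between the deepest columns (60 hpf C replicate 3 and 48 hpf C replicate 1). They cover counting error only, not the spread between embryos or sorts. Since these are bulk samples, fewer cells of a type and less RNA per cell cannot be told apart.

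Of 10556 genes tested, 2409 (22.8%) were called higher in 60 hpf C and 2019 (19.1%) lower, so that 41.9% were at least 2-fold apart, and the median log2 of 60 hpf C over 48 hpf C was 0.14. For 4354 of the 4428 called genes the counting interval excluded a ratio of 1. With replicate 3 taken as a second library of 48 hpf C, 2885 of 10190 tested genes were higher and 1443 lower. The median of all genes then stood at 0.39. List counts given below with replicate 3 included are to be set beside these counts, not beside 22.8% and 19.1%. Genes low in 1 stage enter the counts of called genes only through the other stage. Among the 7754 genes at 10 CPM or more in both stages, 1244 (16.0%) were higher and 964 (12.4%) lower.

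Genes were grouped in 27 lists of cell types and pathways with 765 identifiers, of which 481 were tested and 127 were listed at 0 in all 36 columns. The lists of neurons, photoreceptors, and synapses had medians on the higher side, and those of the cell cycle, the Notch and Hedgehog pathways, and the cornea and mesenchyme on the lower side. The median log2 was 1 or more in 9 of the 26 lists with at least 5 tested members and -1 or less in 8. Restricted to genes at 10 CPM or more in both stages, 15 of 17 Notch genes and 21 of 37 cell cycle genes were lower and none of them higher. On the same terms 10 of 15 amacrine, 5 of 7 bipolar, and 16 of 23 vesicle genes were higher and none of them lower. Only 4 rod genes, 2 cone genes, and 1 lens gene reached 10 CPM in both stages, so that the counts of those lists rest on genes that were low at 48 hpf.

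**Figure D1:**
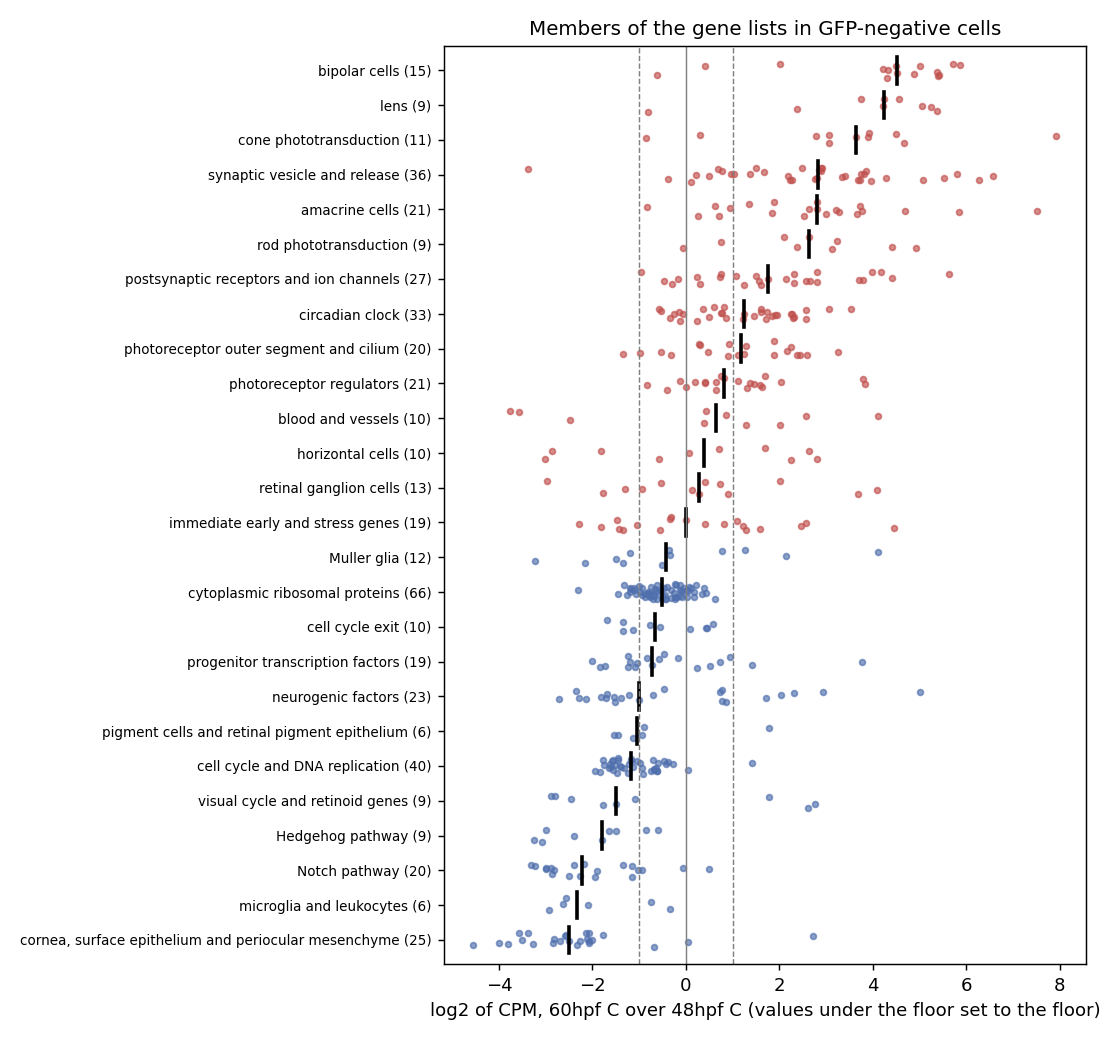
Each point is 1 tested gene, plotted by its log2 of CPM in 60 hpf C over 48 hpf C (x axis), in the list named on the left with its number of tested members; bars mark medians, dashed lines the 2-fold limits, and red and blue a median above and below 0. The medians run from 4.51 for bipolar cells to -2.500 for cornea, surface epithelium, and mesenchyme.

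Genes of DNA replication and mitosis were lower in 60 hpf C. In this list 40 of 52 identifiers were tested, with 1 called higher, 23 called lower, and a median log2 of -1.18, beside 19.1% of all genes called lower. Their summed level was 4004, 3988, and 4094 CPM in 60 hpf C, against 10251 and 10291 CPM in 48 hpf C, 2.55-fold lower at 60 hpf. *mcm5*, a subunit of the helicase that opens replication origins, stood at 126, 123, and 130.2 CPM in 60 hpf C, against 288 and 285 CPM in 48 hpf C, 2.27-fold lower (1.95 to 2.496). *ccnd1*, the cyclin that carries cells through G1, stood at 192.2, 194, and 191 CPM in 60 hpf C, against 741 and 733 CPM in 48 hpf C, 3.83-fold lower (3.57 to 4.23), the lowest log2 of the list. *bub1*, a kinase of the spindle checkpoint, stood at 14.3, 16.1, and 15.8 CPM in 60 hpf C, against 57.9 and 52.8 CPM in 48 hpf C, 3.59-fold lower (2.68 to 4.94). For all 3 genes every 60 hpf C column lay below every 48 hpf C column, replicate 3 included (365, 643, and 46.1 CPM). The single member called higher was *gins1*, of the same replication machinery, at 16.4, 17.6, and 17.4 CPM in 60 hpf C, against 6.07 and 6.86 CPM in 48 hpf C, 2.65-fold higher (1.41 to 6.80). Replicate 3 had 17.4 CPM of *gins1*, level with 60 hpf C, so that this call is lost against it. *pcna* and *mki67* were listed at 0 in all 36 columns, as were 11 identifiers of the list in all, although dividing cells use these genes, and they say nothing about proliferation here. With replicate 3 included the list gave 0 higher, 25 lower, and a median of -1.28.

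Genes of cell cycle exit, among them inhibitors of cyclin-dependent kinases, were called lower or not called. In the list of cell cycle exit 10 of 11 identifiers were tested, with 0 called higher, 4 called lower, and a median log2 of -0.66, and the summed level was 1848, 1837, and 1866 CPM in 60 hpf C, against 1723 and 1733 CPM in 48 hpf C, a difference opposite in sign to the median. Among all genes 22.8% were called higher and 19.1% lower. *cdkn1ca* and *cdkn1cb*, both of the p57 type, stood lower. *cdkn1ca* had 27.6, 27.8, and 31.5 CPM in 60 hpf C, against 76.7 and 71.3 CPM in 48 hpf C, 2.55-fold lower (1.89 to 3.09), and *cdkn1cb* had 5.04, 5.32, and 5.17 CPM in 60 hpf C, against 15.18 and 18.3 CPM in 48 hpf C, 3.23-fold lower (1.61 to 5.23). *cdkn1bb*, of the p27 type, was not called, at 70.5, 71.0, and 71.9 CPM in 60 hpf C, against 53.1 and 52.597 CPM in 48 hpf C.

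The Notch pathway had the lowest median of the signaling and transcription factor lists. Here 20 of 30 identifiers were tested, with 0 called higher, 17 called lower, and a median log2 of -2.22, beside 19.1% of all genes called lower. The summed level was 1059.8, 1056, and 1025 CPM in 60 hpf C, against 5255 and 5243 CPM in 48 hpf C, 5.01-fold lower at 60 hpf. Among the receptors, *notch3* stood at 17.7, 17.5, and 18.4 CPM in 60 hpf C, against 179.5 and 177 CPM in 48 hpf C, 9.97-fold lower (7.81 to 12.2). The symbol *NOTCH1* belongs to 2 identifiers that cannot be assigned to one zebrafish copy each. ENSDARG00000103554 had 53.7, 51.4, and 54.5 CPM in 60 hpf C, against 391 and 391 CPM in 48 hpf C, 7.35-fold lower (6.26 to 8.22), and ENSDARG00000052094 had 11.04, 11.1, and 11.7 CPM in 60 hpf C, against 63.4 and 65.2 CPM in 48 hpf C, 5.70-fold lower (3.97 to 7.53). All 3 receptors were lower in every 60 hpf C column than in either 48 hpf C column. Of the targets, *her4.1* stood at 42.2, 37.2, and 44.0 CPM in 60 hpf C, against 389 and 381 CPM in 48 hpf C, 9.37-fold lower (7.65 to 10.2). *her4.2*, a tandem copy of nearly the same sequence named after its values were seen, stood at 294 CPM in 60 hpf C and 2330.3 CPM in 48 hpf C on average, and reads of these copies may be split between them. *her6*, a related repressor, was not called, at 64.5, 75.2, and 58.3 CPM in 60 hpf C, against 47.1 and 46.5 CPM in 48 hpf C. The ligands *dlb* and *dlc*, the glycosyltransferase *lfng*, and the DNA-binding partner *RBPJ* were also named after their values were seen. Their means were 33.5 CPM in 60 hpf C and 151 CPM in 48 hpf C for *dlb*, 24.5 CPM in 60 hpf C and 94.7 CPM in 48 hpf C for *dlc*, 109.8 CPM in 60 hpf C and 529 CPM in 48 hpf C for *lfng*, and 137 CPM in 60 hpf C and 304 CPM in 48 hpf C for *RBPJ*, and all were called lower. *numb*, an inhibitor of Notch, had 14.7 CPM in 60 hpf C and 15.4 CPM in 48 hpf C. The ligand *dla* was listed at 0 in all columns. Replicate 3 lay between the stages for *notch3* (80.2 CPM), ENSDARG00000052094 (21.1 CPM), and *her4.1* (272 CPM), and with it the list gave 0 higher, 14 lower, and a median of -1.86.

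Genes of the Hedgehog pathway, which signals through the retina as a wave from newly formed neurons, were called lower or not called. In this list 9 of 13 identifiers were tested, with 0 called higher, 7 called lower, and a median log2 of -1.79, beside 19.1% of all genes called lower. *gli1*, a direct target, stood at 3.57, 3.52, and 4.26 CPM in 60 hpf C, against 35.7 and 36.7 CPM in 48 hpf C, 9.57-fold lower (5.13 to 13.7). *gli3*, a second transcription factor of the pathway, stood at 10.4, 11.4, and 10.6 CPM in 60 hpf C, against 87.8 and 93.8 CPM in 48 hpf C, 8.42-fold lower (6.20 to 11.4). The columns of the stages did not overlap for either factor. The ligand *SHH* (ENSDARG00000068567) was low throughout, at 4.15, 4.28, and 5.76 CPM in 60 hpf C, against 12.9 and 13.7 CPM in 48 hpf C, 2.81-fold lower (1.19 to 4.05), and against replicate 3 (2.49 CPM) its sign turns and the call is lost. The other *SHH* identifier (ENSDARG00000038867) did not reach 10 CPM.

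Transcription factors of retinal progenitors were split. In this list 19 of 24 identifiers were tested, with 2 called higher, 8 called lower, and a median log2 of -0.73. The shares of all genes were 22.8% higher and 19.1% lower. *sox3*, of the SoxB1 class that keeps neural cells undifferentiated, had 37.0, 38.3, and 38.0 CPM in 60 hpf C, against 151 and 152 CPM in 48 hpf C, 4.003-fold lower (3.27 to 4.78). *mycn*, a driver of growth and division, had 73.2, 72.7, and 81.5 CPM in 60 hpf C, against 269 and 269.8 CPM in 48 hpf C, 3.56-fold lower (2.88 to 3.78). The retinal homeobox gene *rx2* had 33.4, 33.0, and 33.2 CPM in 60 hpf C, against 76.5 and 75.1 CPM in 48 hpf C, 2.28-fold lower (1.81 to 2.93). These genes were lower in every 60 hpf C column. In contrast, *rx3*, the retinal homeobox gene known from eye field formation, had 195, 199.7, and 195 CPM in 60 hpf C, against 13.7 and 15.25 CPM in 48 hpf C, 13.6-fold higher (9.01 to 24.2), while replicate 3 had 0.622 CPM. *six6b*, another eye field gene, had 104, 105, and 100.2 CPM in 60 hpf C, against 37.2 and 40.4 CPM in 48 hpf C, 2.66-fold higher (2.01 to 3.68). The *PAX6* identifiers and *sox2* were not called. The *PAX6* identifier ENSDARG00000045936 had 1447, 1442, and 1467 CPM in 60 hpf C, against 1227 and 1227 CPM in 48 hpf C, and ENSDARG00000103379 had 761, 763, and 775 CPM in 60 hpf C, against 464 and 466 CPM in 48 hpf C. *sox2* had 69.9, 70.0, and 69.7 CPM in 60 hpf C, against 49.0 and 49.5 CPM in 48 hpf C.

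The neurogenic factors were split. Here 23 of 25 identifiers were tested, with 5 called higher, 12 called lower, and a median log2 of -1.01, and the summed level hardly differed, at 7177, 7135, and 7245 CPM in 60 hpf C, against 6774 and 6776 CPM in 48 hpf C, with a sign opposite to that of the median. Over all genes 22.8% were called higher and 19.1% lower. *ascl1a*, a proneural factor of progenitors, had 21.6, 21.9, and 19.4 CPM in 60 hpf C, against 101 and 103 CPM in 48 hpf C, 4.88-fold lower (4.1005 to 6.74). *atoh7*, required for ganglion cells, had 49.4, 48.6, and 51.8 CPM in 60 hpf C, against 144 and 143 CPM in 48 hpf C, 2.88-fold lower (2.32 to 3.33). *foxn4*, needed in mouse for amacrine and horizontal cells, had 93.2, 94.9, and 102 CPM in 60 hpf C, against 314 and 312 CPM in 48 hpf C, 3.24-fold lower (2.72 to 3.49). These 3 genes were below 48 hpf C in every 60 hpf C column, and replicate 3 had 36.7, 236, and 367 CPM of them. The lowest log2 of the list belonged to *SOX11* (ENSDARG00000095743), a factor of newborn neurons, with 99.8, 99.9, and 94.7 CPM in 60 hpf C, against 641 and 640.2 CPM in 48 hpf C, 6.53-fold lower (6.11 to 7.52). The groups did not overlap for *SOX11* either. The *NEUROD6* identifier ENSDARG00000020794 had 3.56, 3.55, and 2.95 CPM in 60 hpf C, against 17.5 and 16.8 CPM in 48 hpf C, 5.11-fold lower (3.104 to 11.3).

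Other bHLH factors of the list were called higher. *neurod4* had 1568, 1551, and 1586 CPM in 60 hpf C, against 481 and 482 CPM in 48 hpf C, 3.26-fold higher (3.05 to 3.58). *bhlhe23*, which in mouse serves the maturation of rod bipolar cells, had 433, 431, and 425 CPM in 60 hpf C, against 12.9 and 13.7 CPM in 48 hpf C, 32.3-fold higher (20.5 to 56.6). *bhlhe22*, which in mouse marks amacrine and bipolar subtypes, had 153, 152, and 150.5 CPM in 60 hpf C, against 19.7 and 20.2 CPM in 48 hpf C, 7.60-fold higher (5.17 to 11.7). The groups did not overlap for any of these, and replicate 3 lay with 48 hpf C at 570.1, 9.64, and 20.5 CPM. *neurod1*, named after its values were seen, averaged 1141 CPM in 60 hpf C and 278 CPM in 48 hpf C. With replicate 3 included the list gave 8 higher, 9 lower, and a median of -0.76.

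**Figure D2:**
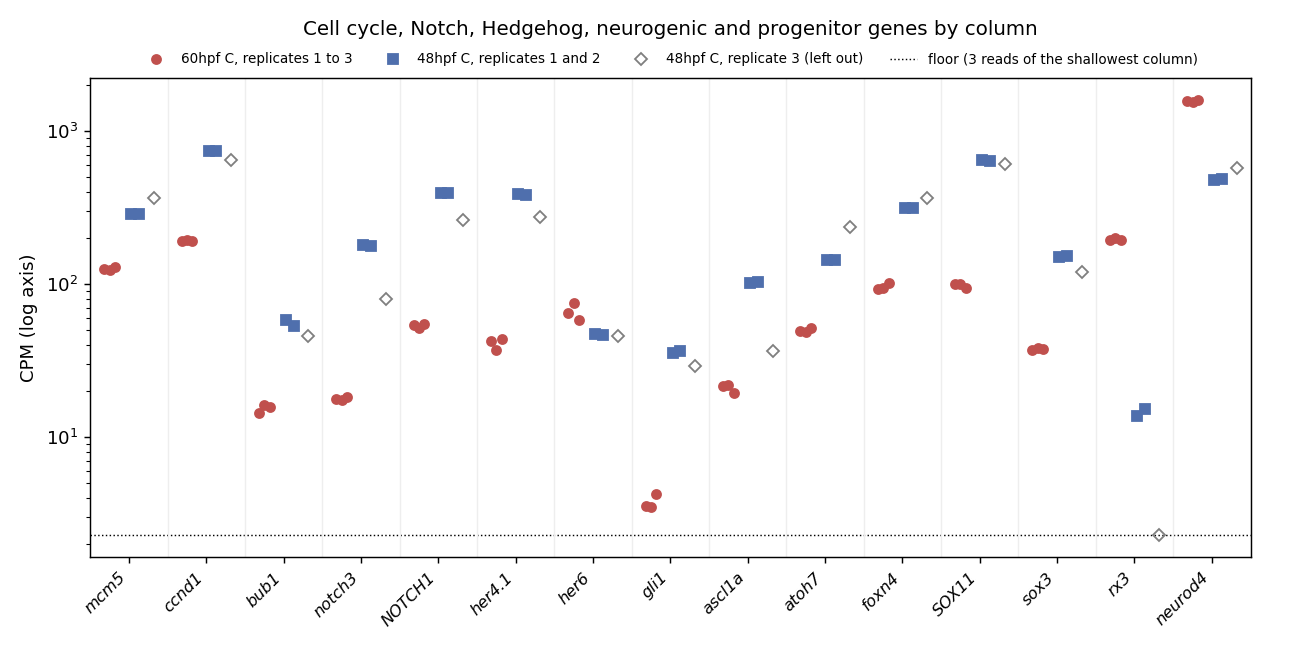
CPM (log axis) of 15 genes in each column of 60 hpf C (red circles) and 48 hpf C (blue squares), with the left-out replicate 3 of 48 hpf C as open diamonds and values under the floor drawn at the floor. The circles lie below the squares for 12 genes and above them for *her6*, *rx3*, and *neurod4*. The identifiers drawn are ENSDARG00000095743 for *SOX11*, chosen as the lowest log2, and ENSDARG00000103554 for *NOTCH1*.

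Amacrine genes were higher in 60 hpf C. In this list 21 of 24 identifiers were tested, with 16 called higher, 0 called lower, and a median log2 of 2.80, beside 22.8% of all genes called higher, and the summed level was 6637, 6642, and 6596 CPM in 60 hpf C, against 1384 and 1365 CPM in 48 hpf C. *tfap2a*, a transcription factor of amacrine and horizontal cells, had 950.0, 945, and 920.4 CPM in 60 hpf C, against 152 and 151 CPM in 48 hpf C, 6.19-fold higher (5.24 to 6.98). For GABA, the transmitter of many amacrine cells, the vesicular transporter *slc32a1* had 367, 366, and 373 CPM in 60 hpf C, against 38.7 and 37.4 CPM in 48 hpf C, 9.70-fold higher (7.31 to 13.0). The *GAD1* identifier ENSDARG00000027419, a GABA-synthesizing enzyme, had 133, 133, and 139 CPM in 60 hpf C, against 9.87 and 9.91 CPM in 48 hpf C, 13.6-fold higher (8.22 to 26.6). These 3 genes were higher in every 60 hpf C column. A second *GAD1* identifier (ENSDARG00000093411) stayed under 10 CPM, with 0.445, 0.566, and 0.547 CPM in 60 hpf C, against 6.83 and 8.77 CPM in 48 hpf C, 12.5-fold lower between the deepest columns (3.23 to 51.4). The calcium buffer *calb2b* (calretinin) had 1792, 1807, and 1796 CPM in 60 hpf C, against 9.87 and 9.91 CPM in 48 hpf C, 182-fold higher (106 to 342). *slc18a3a*, which loads acetylcholine into vesicles, had 134, 133, and 127 CPM in 60 hpf C and no read in any column of 48 hpf C, replicate 3 included, and was at least 57.4-fold higher against the floor. *CHAT*, the enzyme that makes acetylcholine, was named after its values were seen and likewise had 28.5, 29.5, and 32.1 CPM in 60 hpf C and 0 in 48 hpf C. No 60 hpf C column overlapped 48 hpf C for these called genes, and with replicate 3 the list gave 19 higher, 0 lower, and a median of 2.83.

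Horizontal and ganglion cell genes were mixed. In the horizontal cell list 10 of 11 identifiers were tested, with 4 called higher, 3 called lower, and a median log2 of 0.39. The shares of all genes were 22.8% higher and 19.1% lower. *onecut1* had 70.7, 72.7, and 73.6 CPM in 60 hpf C, against 578 and 588 CPM in 48 hpf C, 8.07-fold lower (7.01 to 8.82), and *lhx1a*, which marks postmitotic horizontal cells, had 7.85, 6.94, and 5.76 CPM in 60 hpf C, against 50.1 and 49.5 CPM in 48 hpf C, 7.27-fold lower (5.77 to 13.3), with 12.4 CPM in replicate 3. *PROX1*, a homeobox gene of horizontal and amacrine cells, had 474, 474, and 479 CPM in 60 hpf C, against 69.1 and 67.1 CPM in 48 hpf C, 6.99-fold higher (5.63 to 8.64). *PROX1* and *tfap2a* had the highest log2 values of the horizontal list, and both are also counted in the amacrine list. In the ganglion cell list 13 of 21 identifiers were tested, with 3 called higher, 3 called lower, and a median log2 of 0.27. The shares called were near those of all genes. *rbpms2b*, an RNA-binding protein of ganglion cells, was not called, at 297, 308, and 288 CPM in 60 hpf C, against 428 and 428 CPM in 48 hpf C. *eomesa* had 57.3, 59.7, and 68.1 CPM in 60 hpf C, against 215 and 205 CPM in 48 hpf C, 3.40-fold lower (2.71 to 3.67), and *thy1* had 2.46, 2.72, and 2.69 CPM in 60 hpf C, against 20.04 and 21.3 CPM in 48 hpf C, 7.89-fold lower (3.92 to 14.4). The stages overlapped for neither gene. *pou4f3*, a POU factor of ganglion cells, had 28.3, 29.9, and 29.2 CPM in 60 hpf C, against 2.28 and 2.29 CPM in 48 hpf C, a ratio of 12.8 between the deepest columns (4.33 to 62.8). The *SNCG* identifier ENSDARG00000034423, for gamma-synuclein, had 39.3, 39.7, and 37.4 CPM in 60 hpf C, against 1.52 and 2.29 CPM in 48 hpf C, a ratio of 24.6 between the deepest columns (6.74 to 204), resting on 2 to 3 reads in a 48 hpf C column. *pou4f2* was listed at 0 in all columns. With replicate 3 included the horizontal list gave 5 higher, 3 lower, and a median of 0.88, and the ganglion cell list gave 5 higher, 3 lower, and a median of 0.50.

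Bipolar genes had the highest median of all lists. Here 15 of 28 identifiers were tested, with 13 called higher, 0 called lower, and a median log2 of 4.51, beside 22.8% of all genes called higher, and the summed level was 11852, 11785, and 11773 CPM in 60 hpf C, against 1057 and 1050.1 CPM in 48 hpf C, 11.2-fold higher at 60 hpf. *vsx1*, a homeobox factor of bipolar cells, had 2448, 2444, and 2477 CPM in 60 hpf C, against 83.5 and 83.1 CPM in 48 hpf C, 29.5-fold higher (24.6 to 36.1). The highest log2 values belonged to *samsn1a*, with 167, 166, and 166 CPM in 60 hpf C, against 2.66 and 3.05 CPM in 48 hpf C, 58.2-fold higher (21.3 to 201), and *rgs16*, a regulator of G protein signaling, with 116, 115, and 128 CPM in 60 hpf C, against 0.759 and 0.762 CPM in 48 hpf C. For *rgs16* the 48 hpf C columns held 1 read each, which gives a ratio of 169 between the deepest columns (30.2 to 6672). Parts of the cascade by which ON bipolar cells read glutamate were named after their values were seen. *gnao1b*, the G protein subunit, averaged 3959.9 CPM in 60 hpf C and 92.8 CPM in 48 hpf C, the channel *trpm1b* averaged 149.8 CPM in 60 hpf C and 7.61 CPM in 48 hpf C, and *nyx*, which places the channel at the dendrite, averaged 45.5 CPM in 60 hpf C with no read in 48 hpf C. The receptor at the head of the cascade, *GRM6*, stayed under 10 CPM in one identifier (ENSDARG00000017742, 5.88, 5.61, and 6.50 CPM in 60 hpf C, against 3.04 and 4.57 CPM in 48 hpf C) and was listed at 0 in all columns in the other, as was *cabp5a*. With replicate 3 included the list gave 13 higher, 0 lower, and a median of 4.70.

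Photoreceptor regulators were higher or not called. In this list 21 of 24 identifiers were tested, with 10 called higher, 0 called lower, and a median log2 of 0.81. Among all genes 22.8% were called higher and 19.1% lower. *crx*, the homeobox factor that switches on photoreceptor genes, had 1093, 1093, and 1073 CPM in 60 hpf C, against 80.0 and 78.5 CPM in 48 hpf C, 13.7-fold higher (11.1 to 16.5), and 138 CPM in replicate 3. *rorab*, a nuclear receptor of the ROR family, had 975, 969, and 954 CPM in 60 hpf C, against 67.9 and 67.8 CPM in 48 hpf C, 14.2-fold higher (11.3 to 17.4). *six7*, needed in zebrafish for green-sensitive cones, had 65.3, 66.3, and 69.4 CPM in 60 hpf C, against 25.2 and 29.1 CPM in 48 hpf C, 2.47-fold higher (1.95 to 4.07). Every 60 hpf C column was above 48 hpf C for these 3 genes. Neither *nr2e3* nor *thrb* was called. *nr2e3*, the rod factor, had 75.6, 76.7, and 80.9 CPM in 60 hpf C, against 48.6 and 50.3 CPM in 48 hpf C, and *thrb*, the factor of red-sensitive cones, had 74.5, 74.3, and 75.3 CPM in 60 hpf C, against 77.1 and 73.0 CPM in 48 hpf C. With replicate 3 included the list gave 10 higher, 0 lower, and a median of 0.97.

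Phototransduction genes were called higher or not called. In the rod list 9 of 23 identifiers were tested, with 7 called higher, 0 called lower, and a median log2 of 2.64, and in the cone list 11 of 37 identifiers were tested, with 9 called higher, 0 called lower, and a median log2 of 3.63, beside 22.8% of all genes called higher. Rhodopsin, *rho*, had 542, 539, and 588 CPM in 60 hpf C, against 19.7 and 16.8 CPM in 48 hpf C, 30.5-fold higher (20.3 to 45.6). Rod transducin *gnat1* had 97.8, 98.0, and 96.3 CPM in 60 hpf C, against 4.55 and 4.57 CPM in 48 hpf C, 21.3-fold higher (9.66 to 57.8). The rod arrestin *saga* had 14.3, 13.4, and 15.0 CPM in 60 hpf C, against 0.911 and 1.07 CPM in 48 hpf C, a ratio of 16.5 between the deepest columns (3.48 to 792). These rod genes were higher in every 60 hpf C column. Among cone genes, the UV opsin *opn1sw1* had 93.7, 99.5, and 96.6 CPM in 60 hpf C, against 3.80 and 3.81 CPM in 48 hpf C, 25.4-fold higher (10.9 to 78.7). Cone transducin *gnat2* had 28.6, 28.1, and 28.1 CPM in 60 hpf C, against 0.759 and 1.52 CPM in 48 hpf C, a ratio of 37.0 between the deepest columns (6.56 to 1468). *opn1sw2*, *opn1lw2*, and *pde6c* were listed at 0 in all columns. 

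The G protein gene *gnb3a* stood apart from the rest of the cone list in level. This G protein beta subunit is found in mouse in cones and in ON bipolar cells. It had 4065, 4069.7, and 4049.6 CPM in 60 hpf C, against 16.7 and 16.8 CPM in 48 hpf C, 243-fold higher (160.1 to 387). Replicate 3 had 56.0 CPM. With the floor applied, its log2 was the highest of the ranked genes at 50 CPM or more. That rank depends on the floor, since *cntn1b* and *pvalb6*, given below, were under the floor at 48 hpf and their folds against it are lower bounds. Without *gnb3a* the summed level of the cone list was 514 CPM in 60 hpf C and 69.8 CPM in 48 hpf C. With *gnb3a* it was 4575 CPM in 60 hpf C and 86.5 CPM in 48 hpf C. In the outer segment and cilium list 20 of 38 identifiers were tested, with 11 called higher, 1 called lower, and a median log2 of 1.18, beside 22.8% of all genes called higher. Of its 11 genes at 10 CPM or more in both stages, 3 were higher and 1 lower, beside 16.0% and 12.4% of all such genes. *tulp1a*, a protein of photoreceptor trafficking, had 24.1, 25.9, and 25.7 CPM in 60 hpf C, against 2.66 and 2.67 CPM in 48 hpf C, 9.48-fold higher (3.25 to 31.4). *crb2a*, of the apical polarity complex, had 24.2, 23.0, and 24.9 CPM in 60 hpf C, against 59.97 and 61.7 CPM in 48 hpf C, 2.53-fold lower (1.82 to 3.16), the only member called lower. *prph2a* and *rs1a* were listed at 0. With replicate 3 included the rod list gave 7 higher, 0 lower, and a median of 2.87, the cone list 9 higher, 0 lower, and a median of 3.81, and the outer segment list 12 higher, 1 lower, and a median of 1.47.

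**Figure D3:**
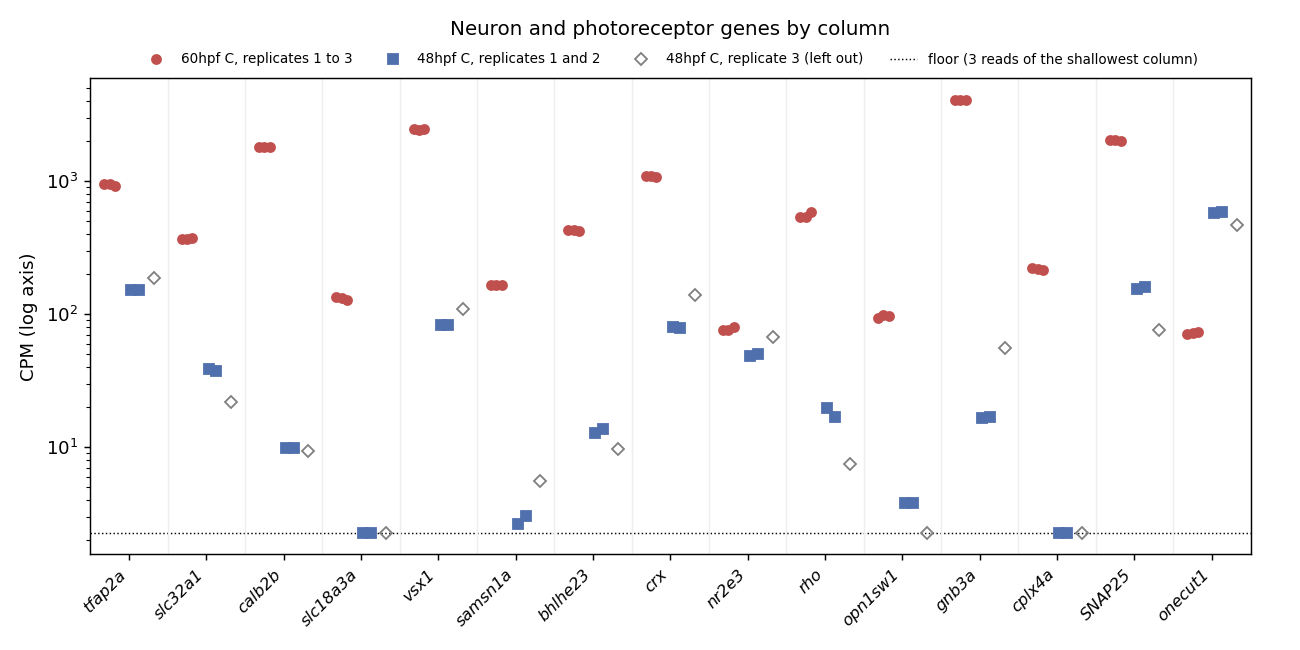
CPM (log axis) of 15 genes in each column of 60 hpf C (red circles) and 48 hpf C (blue squares), with the left-out replicate 3 of 48 hpf C as open diamonds and values under the floor drawn at the floor. The circles lie above the squares for 14 genes, widest for *gnb3a* and *calb2b*, and below them for *onecut1*.

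Genes of the synapse were higher as a group. In the list of synaptic vesicles and release 36 of 50 identifiers were tested, with 28 called higher, 1 called lower, and a median log2 of 2.82, beside 22.8% of all genes called higher, and the summed level was 12109, 12102, and 11905 CPM in 60 hpf C, against 2544 and 2569 CPM in 48 hpf C, 4.71-fold higher at 60 hpf. *SNAP25* (ENSDARG00000058117), of the fusion machinery, had 2037, 2036, and 1997 CPM in 60 hpf C, against 154 and 161 CPM in 48 hpf C, 12.8-fold higher (11.3 to 15.0). The calcium sensor *syt1a* had 973, 974, and 927 CPM in 60 hpf C, against 364 and 373 CPM in 48 hpf C, 2.60-fold higher (2.32 to 2.80), and the vesicle protein *sypb* had 306, 311, and 309.7 CPM in 60 hpf C, against 16.3 and 15.6 CPM in 48 hpf C, 19.3-fold higher (12.2 to 29.6). The stages did not overlap for any of these 3 genes. The highest log2 values of the list, by which both were chosen, belonged to *cplx4a* and *SLC17A7*. *cplx4a*, a complexin of photoreceptor and bipolar terminals, had 222, 217, and 214 CPM in 60 hpf C, against 2.15 and 0.633 CPM in 48 hpf C, a ratio of 99.5 between the deepest columns (32.1 to 456). *SLC17A7* (ENSDARG00000016480), the glutamate transporter of photoreceptor and bipolar vesicles, had 177, 178, and 175 CPM in 60 hpf C, against 0.759 and 0.381 CPM in 48 hpf C, a ratio of 229.9 between the deepest columns (41.2 to 9093). *slc17a6a*, a related glutamate transporter of other neurons, was the only member called lower, with 1.98, 1.85, and 2.26 CPM in 60 hpf C, against 22.9 and 24.4 CPM in 48 hpf C, 10.1-fold lower between the deepest columns (5.36 to 20.6). In the list of postsynaptic receptors and channels 27 of 35 identifiers were tested, with 19 called higher, 0 called lower, and a median log2 of 1.75, beside the same 22.8%. The NMDA receptor subunit *GRIN1* (ENSDARG00000025728) had 839, 835, and 806 CPM in 60 hpf C, against 19.7 and 13.7 CPM in 48 hpf C, 49.4-fold higher (27.8 to 62.6). The AMPA receptor subunit *gria1b* had 47.7, 46.9, and 50.1 CPM in 60 hpf C, against 1.52 and 1.52 CPM in 48 hpf C, a ratio of 33.0 between the deepest columns (9.06 to 273). The *GRIA2* identifier ENSDARG00000052765 was just past the limit, with 17.1, 17.6, and 17.7 CPM in 60 hpf C, against 8.73 and 8.004 CPM in 48 hpf C, 2.09-fold higher (1.07 to 3.87), and the glycine receptor subunit *glra1* was not called, with 23.7, 23.4, and 22.2 CPM in 60 hpf C, against 20.5 and 16.8 CPM in 48 hpf C. With replicate 3 included the vesicle list gave 31 higher, 1 lower, and a median of 3.21, and the postsynaptic list 23 higher, 0 lower, and a median of 2.17.

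Clock genes were on the higher side. In this list 33 of 50 identifiers were tested, with 18 called higher, 0 called lower, and a median log2 of 1.23, beside 22.8% of all genes called higher. *nr1d1*, a repressor in the core loop, had 111, 111, and 108 CPM in 60 hpf C, against 19.0 and 18.3 CPM in 48 hpf C, 5.90-fold higher (3.84 to 8.89). The activator *bmal1a* had 73.6, 74.2, and 62.7 CPM in 60 hpf C, against 22.0 and 24.4 CPM in 48 hpf C, 3.02-fold higher (1.96 to 4.31), and *per2*, which zebrafish cells induce in light, had 30.7, 28.9, and 26.8 CPM in 60 hpf C, against 8.75 and 10.2 CPM in 48 hpf C, 3.04-fold higher (1.65 to 5.82). The stages did not overlap for these genes. *rorca* had the highest log2, with 101, 99.4, and 103 CPM in 60 hpf C, against 9.87 and 7.62 CPM in 48 hpf C, 11.6-fold higher (6.09 to 19.8), and *nfil3-6* had 19.9, 18.5, and 18.8 CPM in 60 hpf C, against 2.28 and 2.29 CPM in 48 hpf C, a ratio of 8.24 between the deepest columns (2.76 to 40.5). *per1b* was not called, at 137, 138, and 131 CPM in 60 hpf C, against 104 and 107 CPM in 48 hpf C. Of the 6 stages, 60 hpf is the only one that is not a whole number of days from 48 hpf, so that age and time of day cannot be told apart in this comparison. At 72, 96, 120, and 192 hpf *nr1d1* averaged 27.11, 2902, 91.4, and 1661 CPM and *per2* 423, 169, 212, and 44.1 CPM in C. The libraries of 72 and 120 hpf stand apart in make-up. After TMM scaling of all C columns *nr1d1* ran 13.3, 84.4, 50.5, 2296, 137, and 1258 CPM from 48 to 192 hpf. On the same scale *per2* ran 6.76, 22.1, 788, 134, 316, and 33.4 CPM.

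Glial genes in the GFP-negative gate were mixed. In the Müller glia list 12 of 20 identifiers were tested, with 3 called higher, 5 called lower, and a median log2 of -0.43, and the summed level was 3528, 3519, and 3519 CPM in 60 hpf C, against 2359.9 and 2357 CPM in 48 hpf C, again opposite in sign to the median. Replicate 3 summed to 4036 CPM, above every 60 hpf C column. Over all genes 22.8% were called higher and 19.1% lower. *gfap*, whose promoter drives the GFP, stayed under 10 CPM, at 0, 0.148, and 0.295 CPM in 60 hpf C, against 7.59 and 5.34 CPM in 48 hpf C. It averaged 4.65 CPM in GFP-positive replicates 1 and 2 of 48 hpf and had 2.49 CPM in replicate 3. At 48 hpf *gfap* was thus no lower in the C columns used than in these GFP-positive columns. *glula*, the glutamine synthetase of glia, had 214, 216, and 221 CPM in 60 hpf C, against 90.3 and 90.7 CPM in 48 hpf C, 2.399-fold higher (2.03 to 2.98), and *rlbp1a* stayed under 10 CPM. *cahz*, a carbonic anhydrase shared with the blood list, had 303, 299, and 298 CPM in 60 hpf C, against 18.2 and 16.8 CPM in 48 hpf C, 17.1-fold higher (10.9 to 25.5). *id2a*, an inhibitor of bHLH factors, had 543, 542, and 550.4 CPM in 60 hpf C, against 124 and 125 CPM in 48 hpf C, 4.39-fold higher (3.80 to 5.24). *cav1* had 4.45, 2.66, and 3.102 CPM in 60 hpf C, against 15.18 and 15.25 CPM in 48 hpf C, 4.47-fold lower (2.52 to 9.49), and *her4.1*, given with the Notch genes, was the other of the lowest members.

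Genes of cells outside the neural retina were present at both stages, at different levels. In the list of cornea, surface epithelium, and periocular mesenchyme 25 of 31 identifiers were tested, with 1 called higher, 22 called lower, and a median log2 of -2.500, and the summed level was 1037, 1034, and 1057 CPM in 60 hpf C, against 6121 and 6129 CPM in 48 hpf C and 9215 CPM in replicate 3. Among all genes 22.8% were called higher and 19.1% lower. *krt4*, a keratin of surface epithelium, had 241, 241, and 251 CPM in 60 hpf C, against 2772 and 2784 CPM in 48 hpf C, 11.4-fold lower (10.4 to 11.7), and 5292 CPM in replicate 3. The collagen *col1a1a* had 72.4, 70.9, and 77.6 CPM in 60 hpf C, against 311 and 309 CPM in 48 hpf C, 4.21-fold lower (3.52 to 4.58). *FOXC1* (ENSDARG00000091481), a forkhead factor of periocular mesenchyme, had 2.37, 2.66, and 2.51 CPM in 60 hpf C, against 38.7 and 41.2 CPM in 48 hpf C, 15.9-fold lower (8.76 to 28.5). Without *krt4* the list still summed to 798 CPM in 60 hpf C and 3347 CPM in 48 hpf C. The one member called higher, *tfap2e*, had 193, 192.1, and 207 CPM in 60 hpf C, against 28.8 and 31.3 CPM in 48 hpf C, 6.57-fold higher (5.20 to 10.2). Genes of mesenchyme and epithelium were thus lower over the same hours as those of the cell cycle and Notch lists, and their part in those differences was not tested.

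Lens genes were higher in 60 hpf C. In the lens list 9 of 38 identifiers were tested, with 8 called higher, 0 called lower, and a median log2 of 4.24, and the summed level was 550.5, 552, and 552 CPM in 60 hpf C, against 47.4 and 41.5 CPM in 48 hpf C and 98.9 CPM in replicate 3. For this list and the next 2, the shares of all genes were 22.8% higher and 19.1% lower. The crystallin *cryba1b* had 92.6, 97.4, and 92.7 CPM in 60 hpf C, against 1.52 and 1.52 CPM in 48 hpf C, a ratio of 61.0 between the deepest columns (16.8 to 505), and *cryba1l1* had 88.7, 86.1, and 85.5 CPM in 60 hpf C, against 3.80 and 0.762 CPM in 48 hpf C, a ratio of 22.5 between the deepest columns (9.60 to 69.7). Both *CRYBA2* identifiers had no read in the 48 hpf C columns used, against 54.5, 55.3, and 51.0 CPM for ENSDARG00000041925 and 29.7, 30.1, and 32.4 CPM for ENSDARG00000030349 in 60 hpf C. *cryaa* was listed at 0, and *MIP* (ENSDARG00000013963) stayed under 10 CPM. In the pigment list 6 of 23 identifiers were tested, with 1 called higher, 3 called lower, and a median log2 of -1.04, beside the same 22.8% and 19.1%. Only 1 of these genes reached 10 CPM in both stages and it was not called, so that the calls rest on genes low in 1 stage. The summed level was 98.3, 96.3, and 104 CPM in 60 hpf C, against 163 and 154 CPM in 48 hpf C. *dct*, an enzyme of melanin synthesis, was not called, at 28.7, 29.2, and 29.6 CPM in 60 hpf C, against 56.6 and 56.0 CPM in 48 hpf C. The related enzyme gene *TYRP1* (ENSDARG00000029204) had 4.96, 4.51, and 5.47 CPM in 60 hpf C, against 15.18 and 13.7 CPM in 48 hpf C, 2.90-fold lower (1.53 to 4.91). *pmela* was listed at 0 in all columns. The summed level of the blood and vessel list was 998, 991, and 1000.1 CPM in 60 hpf C, against 479 and 482 CPM in 48 hpf C, with 4 of 10 tested members higher and 3 lower, beside the same 22.8% and 19.1%. Of these sums *cahz*, shared with the Müller glia list, held 299.9 CPM in 60 hpf C and 17.5 CPM in 48 hpf C on average. Among the 5 members at 10 CPM or more in both stages, 2 were higher and 0 lower. The endothelial receptor *kdrl* had 0.482, 0.547, and 0.916 CPM in 60 hpf C, against 26.6 and 27.8 CPM in 48 hpf C, 29.0-fold lower between the deepest columns (12.5 to 87.2), while *cdh5*, an endothelial cadherin, had 49.9, 51.1, and 51.8 CPM in 60 hpf C, against 7.97 and 9.15 CPM in 48 hpf C, 5.95-fold higher (3.43 to 12.6). The microglia and leukocyte list summed to 95.7, 95.5, and 91.7 CPM in 60 hpf C, against 259 and 256 CPM in 48 hpf C.

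**Figure D4:**
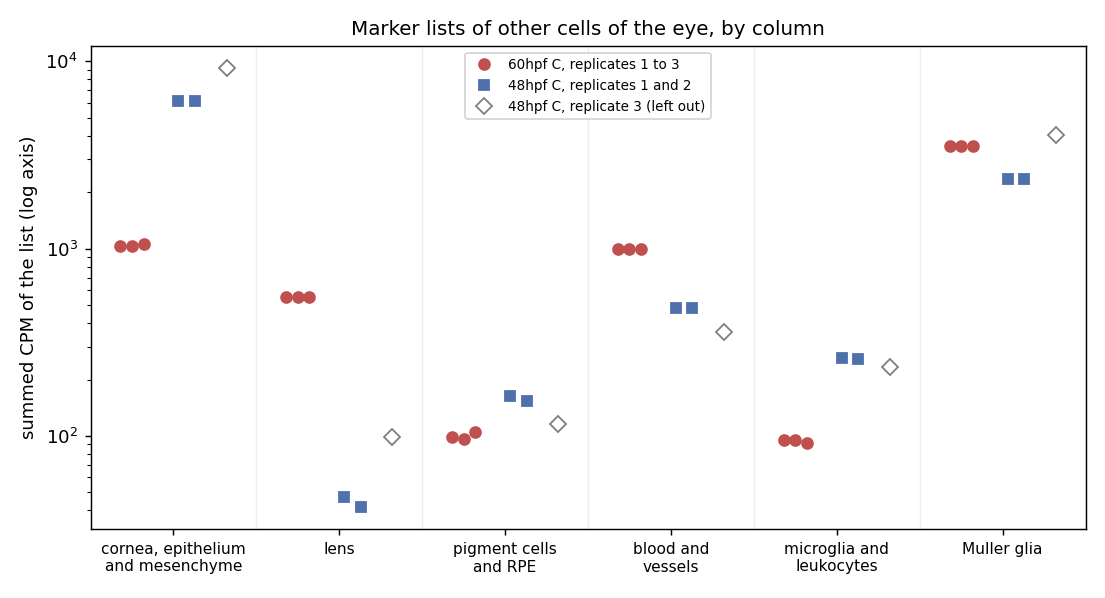
Summed CPM (log axis) of 6 marker lists in each column of 60 hpf C (red circles), 48 hpf C (blue squares), and the left-out replicate 3 of 48 hpf C (open diamonds). The cornea, pigment, and leukocyte lists are lower and the lens, blood, and Müller glia lists higher in 60 hpf C than in the squares. For the Müller glia list the open diamond lies above the circles. *cahz* is counted in both the blood and the Müller glia sums.

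Of the genes at 50 CPM or more in either stage, the 10 highest and the 10 lowest by log2 were examined. On the higher side these included *gnb3a*, *cntn1b*, *pvalb6*, *calb2b*, *cplx4a*, *IGSF21*, *nrn1lb*, *SLC17A7*, and *GLDN*. *cntn1b*, an axonal adhesion protein, had 526, 520.4, and 529 CPM in 60 hpf C, against 1.52 and 0.762 CPM in 48 hpf C, a ratio of 349 between the deepest columns (96.5 to 2881). The calcium buffer *pvalb6* (a parvalbumin) had 484, 479, and 470.4 CPM in 60 hpf C and no read in 48 hpf C, and was at least 209-fold higher against the floor. *IGSF21* averaged 216 CPM, *nrn1lb* 181 CPM, and *GLDN* 152 CPM in 60 hpf C, and each had at most 3 reads in a 48 hpf C column.

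On the lower side these were *gata3*, 2 identifiers of *OTP*, *DLX2*, *ttn.2*, *tnn*, *POU3F2*, *GPNMB*, *eya2*, and *PAX7*. *gata3*, a zinc finger factor, had 1.63, 1.48, and 1.33 CPM in 60 hpf C, against 119.9 and 111 CPM in 48 hpf C, 90.2-fold lower between the deepest columns (46.3 to 201). The *OTP* identifier ENSDARG00000014201, a homeobox gene of hypothalamic neurons, had 1.04, 0.886, and 1.92 CPM in 60 hpf C, against 87.3 and 89.2 CPM in 48 hpf C, 45.5-fold lower between the deepest columns (25.6 to 88.0). *DLX2* (ENSDARG00000079964), a homeobox gene best known from the forebrain, had 5.19, 5.02, and 4.14 CPM in 60 hpf C, against 161 and 165 CPM in 48 hpf C, 34.1-fold lower (26.2 to 59.96). *ttn.2*, which encodes the muscle protein titin, had 0.815, 1.18, and 0.418 CPM in 60 hpf C, against 70.2 and 70.3 CPM in 48 hpf C, 168-fold lower between the deepest columns (52.8 to 786). The matrix gene *tnn*, a tenascin, had 15.9, 15.4, and 16.5 CPM in 60 hpf C, against 475 and 483 CPM in 48 hpf C, 30.1-fold lower (23.5 to 35.4). *POU3F2* averaged 1.33 CPM in 60 hpf C and 63.1 CPM in 48 hpf C, *GPNMB* 1.23 CPM in 60 hpf C and 61.8 CPM in 48 hpf C, *eya2* 4.15 CPM in 60 hpf C and 109.5 CPM in 48 hpf C, and *PAX7* 1.58 CPM in 60 hpf C and 57.4 CPM in 48 hpf C. Every 60 hpf C column was below 48 hpf C for these genes, and several of them are best known from brain, muscle, or mesenchyme. Which cells these reads came from was not tested. The part of such cells in the lower Notch, Hedgehog, progenitor, and neurogenic genes was not tested either.

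Ribosomal protein genes, which all cells use, were called lower or not called. In this list 66 of 76 identifiers were tested, with 0 called higher, 11 called lower, and a median log2 of -0.50, so that 16.7% of them were lower beside 19.1% of all genes, and the summed level was 63452, 64509, and 64213 CPM in 60 hpf C, against 102705 and 103276 CPM in 48 hpf C and 145598 CPM in replicate 3. With replicate 3 included 16 of the 66 were lower and the median was -0.77, beside 1443 lower of 10190 genes tested. Against replicate 3 alone 38 of the 66 were lower and the median was -1.07, beside 1290 lower of 10082 genes tested. The share of lower ribosomal genes was thus near that of all genes only against replicates 1 and 2. *rplp0* was not called, at 2903, 2990.2, and 2963 CPM in 60 hpf C, against 5416 and 5396 CPM in 48 hpf C, and neither was *rps3*, at 722, 739, and 764 CPM in 60 hpf C, against 639.5 and 642 CPM in 48 hpf C. *RPL5* (ENSDARG00000015862) had 444, 449.7, and 425 CPM in 60 hpf C, against 2174 and 2195 CPM in 48 hpf C, 4.97-fold lower (4.86 to 5.39). In the list of immediate early and stress genes 19 of 34 identifiers were tested, with 7 called higher, 6 called lower, and a median log2 of 0.01. The shares of all genes were 22.8% higher and 19.1% lower. The phosphatase *dusp2* had 129, 128, and 116 CPM in 60 hpf C, against 5.31 and 6.10 CPM in 48 hpf C, 21.8-fold higher (10.6 to 54.5), and the stress factor *ddit3* had 58.2, 58.8, and 61.6 CPM in 60 hpf C, against 10.2 and 9.91 CPM in 48 hpf C, 5.91-fold higher (3.42 to 10.7). *hsp70l*, a heat shock protein, had 15.3, 16.1, and 14.1 CPM in 60 hpf C, against 7.97 and 5.08 CPM in 48 hpf C, 2.33-fold higher (0.908 to 3.52), an interval that includes 1. The chaperone *hsp90aa1.1* had 2.91, 3.82, and 3.65 CPM in 60 hpf C, against 16.2 and 17.5 CPM in 48 hpf C, 4.87-fold lower (2.298 to 8.03). The part of the ribosomal and stress genes in the other differences was not tested.

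Later stages put the interval into a longer course, again with 1 library at each stage. The summed level of the cell cycle list was 10271, 4028, 2359, 3077, 3491, and 3649.8 CPM at the 6 stages in order of age (48 to 192 hpf). That of the Notch list was 5249, 1047, 615, 904, 844, and 1119.9 CPM. Both lists stayed below their 48 hpf level at every later stage. The bipolar list ran 1053, 11803, 5114, 18439.9, 963, and 5775 CPM, and the rod list 1161, 2021, 1272, 11110.2, 2754, and 19927 CPM. The libraries of 72 and 120 hpf stood apart in make-up, since ribosomal protein genes summed to 19104 and 15238 CPM there, against 64058 CPM at 60 hpf and 44214 CPM at 96 hpf. TMM factors over all C columns multiplied the values of 72 and 120 hpf by 1.86 and 1.49 and those of the other stages by 0.713 to 0.791. After TMM the cell cycle and Notch lists were still below their 48 hpf level at every later stage. The order of 60 and 72 hpf turned under TMM for the cell cycle, Notch, bipolar, and rod lists, and for the amacrine list. The amacrine list had 6625 and 4362 CPM at 60 and 72 hpf but 5086 and 8131 CPM after TMM. After TMM the cell cycle list had 3093 and 4396 CPM at these stages, and the Notch list 804 and 1147 CPM. The bipolar list then had 9062 and 9533 CPM, and the rod list 1552 and 2371 CPM.

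**Figure D5:**
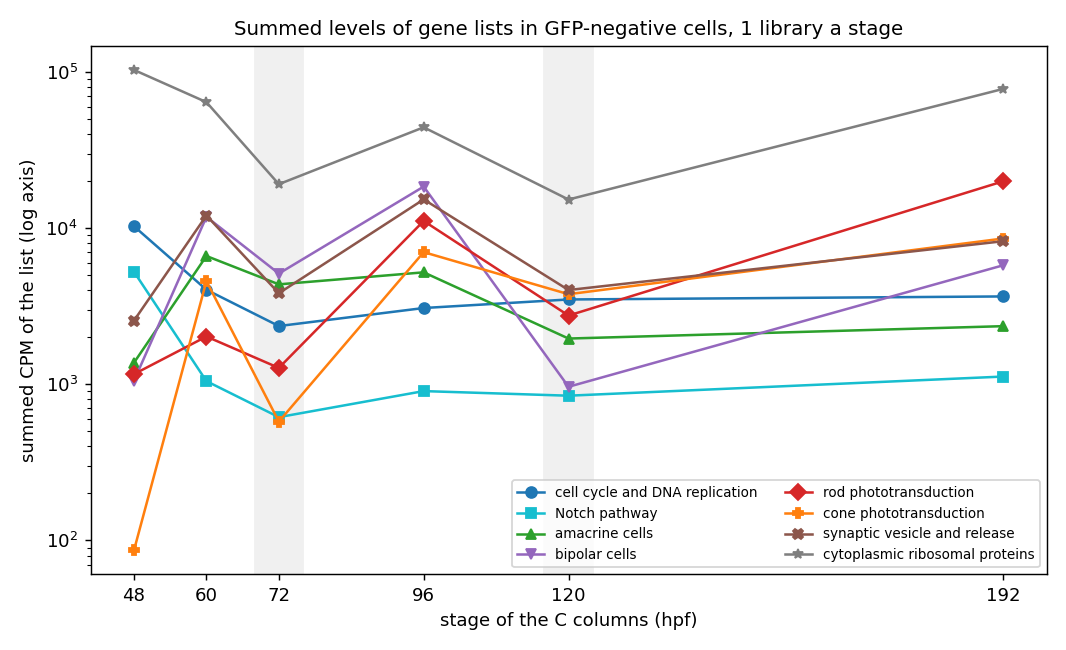
Summed CPM (log axis) of 8 gene lists in C by stage (x axis, hpf), 1 library a stage, with grey bands at 72 and 120 hpf, where ribosomal protein genes are low. Between 48 and 60 hpf the cell cycle, Notch, and ribosomal protein lines go down and the 5 others go up.

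Single genes are given over the same stages, in CPM without TMM scaling. The libraries of 72 and 120 hpf stood apart in make-up, so that age and make-up cannot be told apart there. *atoh7* averaged 144 and 49.96 CPM at 48 and 60 hpf, then 4.44, 30.4, 4.51, and 66.5 CPM at 72, 96, 120, and 192 hpf. *ccnd1* averaged 737 and 192.2 CPM, then 174, 159.7, 1242, and 381 CPM. *vsx1* averaged 83.3 and 2456 CPM, then 157, 2782, 40.5, and 556 CPM. *rho* averaged 18.3 and 556 CPM, then 142, 8740.0, 569.9, and 16099 CPM, and *opn1sw1* 3.80 and 96.6 CPM, then 11.3, 235, 60.6, and 2291 CPM.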

How the data were processed

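RNA-seq was run on sorted C and MG cells of 6 stages from 48 to 192 hpf, with 3 columns for each group. Per the methods and the submitters' processing notes, the authors trimmed reads with Trimmomatic, aligned them with HISAT2, counted them with featureCounts, and used SAMtools, limma, edgeR, and DESeq2. The versions, the counting strand, and the time of day of collection are not given in the sources used here, and the build is GRCz10 in the notes and Zv9 in the methods, so that no coordinates are given. The deposited values are log2 CPM (counts per 1000000) of 31540 Ensembl genes with a prior of 0.25 read. Reads were recovered from them. All values above 0 fell on steps of 0.01 read (tolerance 0.0005), and 43.9% were whole (tolerance 0.005), so that reads were split between genes and near-identical copies or overlapping genes are uncertain. No count test was run because the unit is log2 and each stage was counted as 1 library.

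CPM were averaged over the columns of a stage, and calls used the floor of 3 reads, the minimum of 10 CPM, and the 2-fold limit. Columns were compared by chi-square over genes on which both columns together held 20 reads or more. Named were the anchor genes set for each list, in each list the 2 top and the 2 bottom called members by log2, and, at 50 CPM or more, the 10 genes at either end of the log2 ranking. Members and lists were chosen with earlier results of these data known. Of the identifiers, 26210 (83.1%) were given a name, 4031 from the study, 12955 from the reference, and 9224 as a symbol in capitals shared by a gene family. Of the list symbols 104 had no identifier. Promoter motifs and sequences were not analysed here, and some genes that the naming rule covers are not reported here. Python 3.11.15, numpy 2.4.6, pandas 2.3.3, scipy 1.17.1, and matplotlib 3.10.9 were used, and the procedure was tested on simulated data. 14 alternatives were planned and 2 others were added after the values were seen.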

Additional observations from a re-analysis of the deposited data

Results flagged for a closer look

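The left-out replicate 3 of 48 hpf C differed from the other 2 columns of its group. Of 9445 genes tested between them, 251 (2.66%) were at least 2-fold higher in replicate 3 and 1939 (20.5%) lower. The furthest on the higher side was *wt1b*, with 525 CPM in replicate 3 and 7.04 CPM on average in replicates 1 and 2, followed by *KIFC3* (ENSDARG00000054978) with 539 and 37.7 CPM. *gnb3a*, which ranked highest by log2 of 60 hpf C over 48 hpf C with the floor applied, was also among them. It had 56.0 CPM in replicate 3 and 16.7 CPM in replicates 1 and 2. The furthest on the lower side were *FBXO33* (ENSDARG00000075400), with 6.84 and 402 CPM, and *FAM177A1* (ENSDARG00000079636), with 160.1 and 3073 CPM.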

How the results depend on the processing

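Counts of called genes and lists were recomputed under 16 alternatives, 14 planned and 2 chosen after seeing the data. A minimum of 50 CPM gave 1066 higher and 763 lower genes, a 4-fold limit gave 939 and 854, and both follow from the stricter limits. Replicate 3 of 48 hpf C alone as the 48 hpf library (chosen after seeing the data) gave 3554 higher and 1290 lower, 2085 and 988 of them shared with the reported calls, and turned *gins1* to a log2 of -0.0216 and *SHH* (ENSDARG00000068567) to 0.93. With replicate 3 averaged in, 2227 of the 2409 higher and 1336 of the 2019 lower calls were kept. The remaining alternatives changed the counts of called genes by less than 1.5 times. Under TMM scaling the median log2 of all tested genes was 0.25 against 0.14, with 2693 higher and 1814 lower genes. Lists with a median of 1 or more numbered 8 to 11 under the alternatives (9 reported) and those of -1 or less 6 to 8 (8 reported, 6 under TMM). Without the 10 CPM minimum the medians were 2.37 for the lens, 2.05 for the cone, and 1.71 for the rod list. The medians of 16 of 26 lists moved at 50 CPM, 11 with replicate 3 included, and 18 with it alone. Totals without ribosomal protein and cornea list genes (chosen after seeing the data) gave 2304 and 2279. Leaving out each column in turn gave 2406 to 2432 higher and 2016 to 2035 lower genes. Since the columns of a stage are nearly equal and counted as 1 library, this stability is no check on replicates. Among 154 named genes, 33 moved by more than counting error with a floor of 10 reads, 33 with replicate 3 included, and 59 with it alone, where 2 more reversed. TMM factors over all C columns put *nr1d1* at 84.4 CPM in 60 hpf C and 13.3 CPM in 48 hpf C. With a minimum of 50 reads in both columns together, the ratio was 0.0853 between 48 hpf C replicates 1 and 2 and 9.59 between replicates 1 and 3. No paired analysis was possible because the columns of a stage were counted as 1 library and no test was run.

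With 1 library a stage, no difference has a replicate check. Counts of about 26 reads, as for *rho* in 48 hpf C replicate 1, set the precision of low genes, and genes listed at 0 in all columns, 127 of the list members, cannot be read as absent.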

Other observations

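Retinoid and visual cycle genes had calls in both directions. In this list 9 of 23 identifiers were tested, with 3 called higher, 6 called lower, and a median log2 of -1.502, beside 22.8% of all genes called higher and 19.1% lower, and the summed level was 160.3, 157, and 162 CPM in 60 hpf C, against 318 and 306 CPM in 48 hpf C. Only 4 of these genes reached 10 CPM in both stages, 0 of them higher and 4 lower. The higher calls therefore rest on genes that were low at 48 hpf. *rbp4l*, a retinol-binding protein gene, had 27.24, 27.0, and 26.6 CPM in 60 hpf C, against 4.18 and 3.81 CPM in 48 hpf C, 6.74-fold higher (2.63 to 16.1). The opsin-like gene *RGR* (ENSDARG00000054890) had 14.3, 14.6, and 16.4 CPM in 60 hpf C, against 2.28 and 2.67 CPM in 48 hpf C, 6.10-fold higher (2.401 to 35.4). Both were higher in every 60 hpf C column. *cyp1b1*, a cytochrome of retinoid metabolism in the early eye, had 12.7, 12.3, and 11.97 CPM in 60 hpf C, against 94.1 and 89.2 CPM in 48 hpf C, 7.44-fold lower (5.90 to 10.5), and *stra6*, the receptor that takes up retinol, had 1.78, 2.17, and 1.99 CPM in 60 hpf C, against 15.6 and 16.4 CPM in 48 hpf C, 7.80-fold lower between the deepest columns (3.74 to 16.4). *rgrb* was listed at 0 in all columns.

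In the microglia and leukocyte list 6 of 24 identifiers were tested, with 0 called higher, 4 called lower, and a median log2 of -2.33, beside 19.1% of all genes called lower. Only 3 of these genes reached 10 CPM in both stages, 1 of them lower, so that the count rests on genes that entered through 48 hpf C. *lyz*, the lysozyme of neutrophils and macrophages, had 1.63, 1.92, and 1.77 CPM in 60 hpf C, against 17.5 and 17.5 CPM in 48 hpf C, 9.85-fold lower between the deepest columns (4.70 to 21.7), and 33.0 CPM in replicate 3. *csf1rb*, a receptor of the macrophage lineage, had 1.63, 0.886, and 1.04 CPM in 60 hpf C, against 14.4 and 13.7 CPM in 48 hpf C, 13.9-fold lower between the deepest columns (5.61 to 39.3), while *coro1a* stayed under 10 CPM. The endothelial and blood factor *FLI1* (ENSDARG00000054632) had 5.77, 6.12, and 5.62 CPM in 60 hpf C, against 81.4 and 77.4 CPM in 48 hpf C, 13.6-fold lower (9.91 to 21.5). These genes were lower in every 60 hpf C column.

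Of the pigment list, *slc45a2* had 5.84, 5.69, and 6.54 CPM in 60 hpf C, against 16.6 and 16.5 CPM in 48 hpf C, 2.75-fold lower (1.47 to 4.38), and *rlbp1b*, a retinal-binding protein gene, had 26.0, 25.3, and 25.0 CPM in 60 hpf C, against 7.59 and 7.24 CPM in 48 hpf C, 3.43-fold higher (1.76 to 7.02). *arl3l2*, of the outer segment and cilium list, had 14.4, 14.2, and 12.9 CPM in 60 hpf C and no read in 48 hpf C. The small heat shock protein gene *hspb1* had 6.37, 7.09, and 8.57 CPM in 60 hpf C, against 25.8 and 26.3 CPM in 48 hpf C, 3.55-fold lower (1.91 to 4.68), and the ribosomal gene *rpl7* had 500.0, 518, and 488 CPM in 60 hpf C, against 1362 and 1384 CPM in 48 hpf C, 2.74-fold lower (2.63 to 2.96). The clock gene *PER1* (ENSDARG00000056885) was listed at 0 in all columns, as was the single identifier found for the mitochondrial genome list.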
